A study of Mus musculus with 4 samples.

Results

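BATF and BATF3 are small transcription factors of the AP-1 family that act only as dimers, and the genes that encode them are followed here together with those of their binding partners and competitors in mouse T cells. The set holds 10 genes chosen by name from the 23480 gene identifiers in the deposited files, after these identifiers were matched to mouse gene symbols. They are the BATF factors Batf and Batf3, the interferon regulatory factors Irf4 and Irf8, the JUN genes Jun, Junb and Jund, the FOS genes Fos and Fosl2, and Bach2. RNA was sequenced in 4 libraries of mouse T cells, 2 labelled Th9+TLA1 and 2 labelled Th9. Both groups were cultured under Th9 conditions, which lead helper T cells to make interleukin 9, and the first group also received the cytokine that the labels write as TLA1 and the series title as TL1A, a member of the TNF superfamily. The labels give no mouse strain, age, dose or culture time, and nothing in them ties the 2 replicates of a group to different mice or cultures. Every p-value below therefore reflects spread among libraries alone, possibly of technical origin.

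BATF and BATF3 carry a basic leucine zipper for DNA binding but no transactivation domain of their own. They pair with JUN proteins, and the pair binds AP-1 sites or, together with IRF4 or IRF8, composite sites at which an AP-1 motif and an IRF motif lie side by side. FOS proteins compete with BATF for JUN partners, and BACH2 is a repressor that occupies many of the same sites in T cells. In helper T cells BATF and IRF4 are known for opening and activating cytokine genes, among them Il9. The series title names BATF and BATF3 as the pathways through which TL1A acts on Th9 cells.

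The deposited values are CPM, the reads of a gene scaled to the library's total, and the whole reads recovered from them came to between 2979482 and 4041633 per library. A count of 3 reads, taken as the floor below which a value of 0 cannot be told from a low level, corresponded to 0.742 to 1.01 CPM, for counting error only. The 8 T cell markers were present throughout and summed to 3482 and 3349 CPM in the Th9+TLA1 libraries and 2701 and 3084 CPM in the Th9 libraries. Of the 8, 6 lay wholly higher with TL1A and 1, Cd3e, wholly lower, against 19.1% and 29.0% of all tested genes. None was called by limma, against 1.14% of all tested genes. At an unadjusted p under 0.05 stood 3 of them (Cd3d, Cd3g and Cd2), against 16.7% of all tested genes. The median log2 fold change of the 8 was 0.34. In bulk RNA, fewer cells that express a gene and less RNA per cell cannot be told apart. Batf3 and Irf8 are also strongly expressed in dendritic cells. Of 12 markers of dendritic cells and macrophages, 6 had no read in any library, Clec9a, Csf1r and Lyz2 among them, and the 12 summed to 15.4 and 8.76 CPM in the Th9+TLA1 libraries and 7.92 and 3.47 CPM in the Th9 libraries. Most of this was Zbtb46, at 12.1 and 7.14 CPM in the Th9+TLA1 libraries and 5.44 and 2.84 CPM in the Th9 libraries (limma adjusted p = 0.378). Zbtb46 was wholly higher with TL1A, as were 19.1% of tested genes, Batf3 among them. It passed the filter on low counts only through the Th9+TLA1 libraries, where it was high, so its place among the higher genes is no support. Flt3 had 10 reads with TL1A and 1 without, and Adgre1 went the other way, with 0 reads with TL1A and 9 without. The 6 B cell markers summed to 28.9 and 29.9 CPM in the Th9+TLA1 libraries and 10.4 and 12.9 CPM in the Th9 libraries, mostly from Cd79b, while Ms4a1 and Pax5 had no read. The part of other cells in the results below was not tested.

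RefSeq promoter windows of GRCm38.p6, which run from 250 bases before to 50 bases after each annotated start, were matched for all 10 genes. The only Bach2 window, with upstream bases chr4:32417185-32417434, lies inside the gene. The start of Bach2 at 32238413 was therefore not searched. The stretches before the first annotated exon are shown for Batf (chr12:85686470-85686668, plus strand) and Batf3 (chr1:191098164-191098324, plus strand), because these genes are named in the series title and both had higher values with TL1A. Capitals mark the longest run of letters that the 2 stretches share, which was looked for after the sequences had been seen.
Batf: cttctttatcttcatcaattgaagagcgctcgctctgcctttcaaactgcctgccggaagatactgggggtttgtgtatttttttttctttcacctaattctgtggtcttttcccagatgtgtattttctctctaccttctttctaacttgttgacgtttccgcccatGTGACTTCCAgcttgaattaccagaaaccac
Batf3: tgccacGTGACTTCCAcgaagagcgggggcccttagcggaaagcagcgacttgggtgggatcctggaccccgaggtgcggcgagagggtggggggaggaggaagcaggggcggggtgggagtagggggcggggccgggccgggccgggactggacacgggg
The shared run, GTGACTTCCA, is 10 letters long, and 33 of 32851 mouse promoter windows hold it on either strand, or 0.1005%. The stretches otherwise differ in composition, with 42.2% G and C for Batf and 73.3% for Batf3. None of the 10 genes had the AP-1 letters TGANTCA in its windows on either strand, and 7.81% of all promoter windows hold them. None had either composite motif that contains these letters, AICE1 (TTTC, any 4 letters, then the AP-1 letters; 0.119% of windows) or AICE2 (GAAA directly before the AP-1 letters; 0.125%). The kappaB motif (GGGA, any letter, TTTCC; 0.411%) was also not found. The IRF repeat (GAAA, any 2 letters, GAAA; 3.44%) was found for Fosl2 alone. These letters describe the windows only.

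The comparison of Th9+TLA1 with Th9 addressed whether the transcripts of BATF factors and their partners differed when TL1A was present. With TL1A, Batf3 was about 2-fold higher, Irf8 was lower, and Batf, Bach2, Fosl2 and Junb were moderately higher, while Irf4, Jun and Jund lay close to their Th9 levels. None of these differences passed the test over all genes. In the limma fit to 10324 genes, 118 genes, or 1.14%, were called at an adjusted p under 0.05, and 0 of the 10 factors were among them. At an unadjusted p under 0.05 stood 6 of the 10, against 16.7% of all tested genes. The 10 were chosen with earlier results of these data known, so such counts are a description and no support. EdgeR's quasi-likelihood test, run on the recovered reads, called 0 of the 10, and 1.07% of all genes, while DESeq2 called 2 of the 10, Batf3 and Irf8, and 3.23% of the genes to which it gave an adjusted p. The Th9+TLA1 libraries lay wholly above the Th9 libraries for 5 of the 10 factors, against 19.1% of tested genes, and wholly below them for 2 of the 10, against 29.0%. The 2 lower ones are Irf8 and Fos. All 10 genes passed the filter on low counts, but Fos did so only through its Th9 libraries, where it is high, so its place among the lower genes is no support. The median log2 fold change of the 10 was 0.26, or 0.47 over the 9 others, and that of all tested genes was -0.01.

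**Figure D1:**
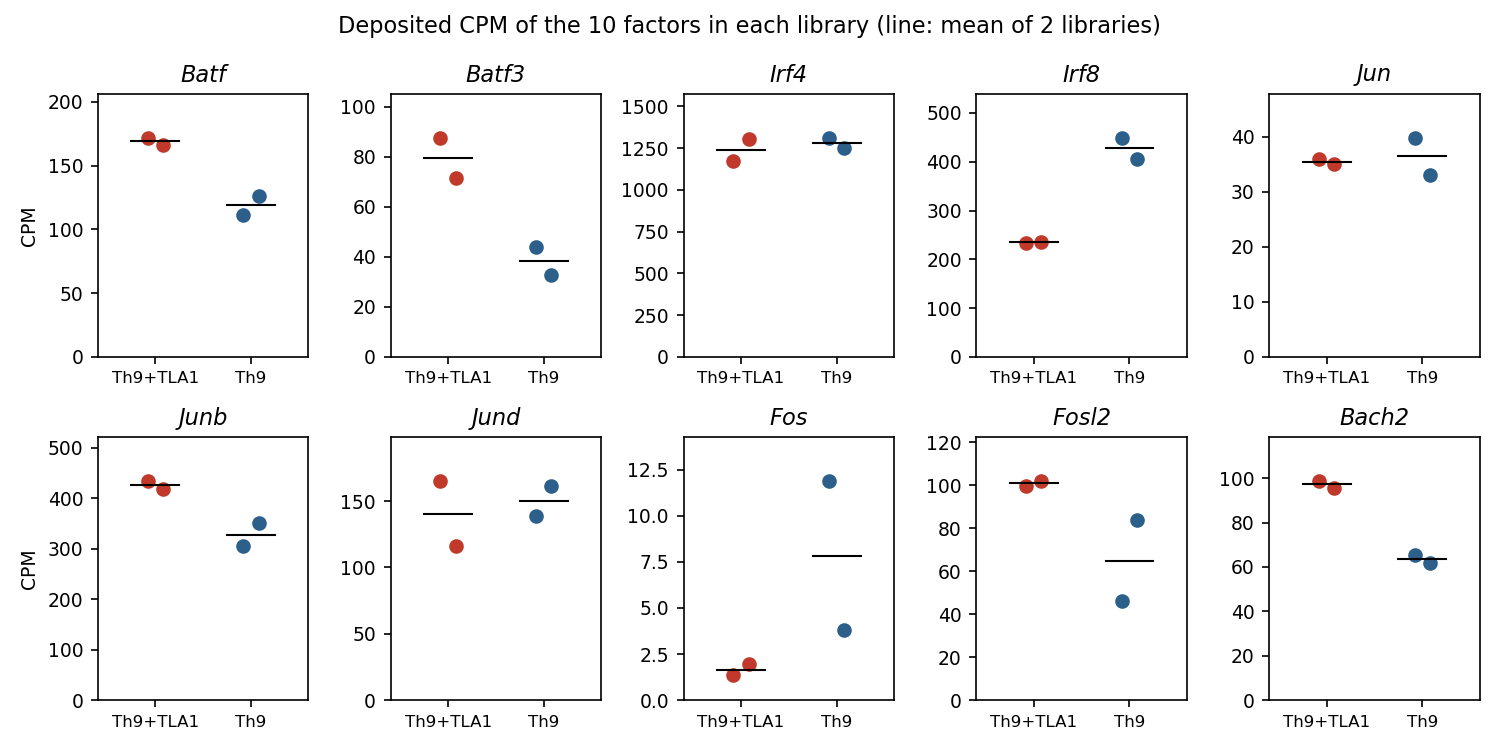
Deposited CPM (vertical axes, each starting at 0 with its own scale) of each of the 10 factors in the 2 Th9+TLA1 libraries (red) and the 2 Th9 libraries (blue), with a line at each group's mean. The red points lie above the blue points for Batf, Batf3, Junb, Fosl2 and Bach2, below them for Irf8 and Fos, and overlap them for Irf4, Jun and Jund.

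Batf3 (Entrez 381319, chromosome 1, 191098414 to 191108943 of mm10) had 87.6 and 71.7 CPM in the Th9+TLA1 libraries and 44.0 and 32.8 CPM in the Th9 libraries. These values rest on 261 and 221 reads with TL1A and on 178 and 104 reads without it. The groups did not overlap, and the lower TL1A library stood well above the higher Th9 library. Means were 79.7 ± 11.2 CPM with TL1A and 38.4 ± 7.92 CPM without (SD, n = 2 libraries each). The log2 fold change was 1.13 ± 0.27 (SE), a 2.19-fold difference with a 95% interval of 1.46- to 3.27-fold, and the limma adjusted p was 0.0722. Batf3 ranked 169 of all tested genes by p. With DESeq2 its adjusted p was 0.0224, which passes the threshold, and over the settings run without a replicate block it ranged up to 0.241.

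Batf (Entrez 53314, chromosome 12, 85686720 to 85709087) had 172 and 166 CPM in the Th9+TLA1 libraries and 112 and 126 CPM in the Th9 libraries. The groups did not overlap, and the difference was larger than the gap between libraries within either group. The log2 fold change was 0.60 ± 0.20 (SE), or 1.51-fold with a 95% interval of 1.12- to 2.04-fold, and it did not pass (limma adjusted p = 0.165). Set against Batf within each library per kilobase of exon, Batf3 stood at 0.608 and 0.515 of the Batf level in the Th9+TLA1 libraries and at 0.471 and 0.311 in the Th9 libraries. Batf3 thus made up 37.8% and 33.98% of the summed BATF transcripts per kilobase with TL1A, and 32.0% and 23.7% without. These shares did not overlap between groups, and an exact two-sided permutation test gave p = 0.333, the smallest that 2 against 2 libraries allow.

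IRF4, a lymphocyte factor with weak DNA binding of its own that BATF and JUN anchor at composite sites, was encoded by one of the most abundant transcripts of the set. Irf4 (Entrez 16364, chromosome 13, 30749233 to 30766981) had 1172 and 1306 CPM in the Th9+TLA1 libraries and 1312 and 1251 CPM in the Th9 libraries. The groups overlapped. The log2 fold change was 0.04 ± 0.17 (SE, limma adjusted p = 0.941), and its 95% interval, 0.79- to 1.34-fold, leaves room for differences of that size. The sign of this value turned without Th9+TLA1 replicate 2, and with total count scaling, which put the median of all tested genes at -0.10 in place of -0.01.

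Irf8, which encodes the related factor that also partners BATF and has been described as a regulator in mouse Th9 cells, gave the smallest p of the 10. Irf8 (Entrez 15900, chromosome 8, 120736358 to 120756694) had 234 and 236 CPM in the Th9+TLA1 libraries and 449 and 406 CPM in the Th9 libraries, from 696 and 727 reads with TL1A and 1815 and 1285 reads without. The TL1A libraries were nearly equal, and both lay far below the Th9 libraries. The log2 fold change was -0.77 ± 0.17 (SE), which is 1.70-fold lower with TL1A, and the limma adjusted p was 0.0551, just over the threshold. Irf8 passed with DESeq2 (adjusted p = 0.00402), with total count scaling (limma, 0.0448) and with a minimum count of 30 (limma, 0.0478). Total count scaling put its log2 fold change at -0.86 and the median of all tested genes at -0.10 in place of -0.01. In the other limma and edgeR settings with all libraries Irf8 did not pass. Its adjusted p there ran from 0.0501 (pseudocount of 2 CPM) to 0.110 (no filter on low counts). With any 1 library left out its log2 fold change was between -0.79 and -0.74. The difference was of the same size within each replicate number, at -0.80 for replicate 1 and -0.74 for replicate 2 on the log2 scale. Of the summed Irf4 and Irf8 transcripts per kilobase, Irf8 made up 21.7% and 20.03% in the Th9+TLA1 libraries and 32.2% and 31.0% in the Th9 libraries.

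**Figure D2:**
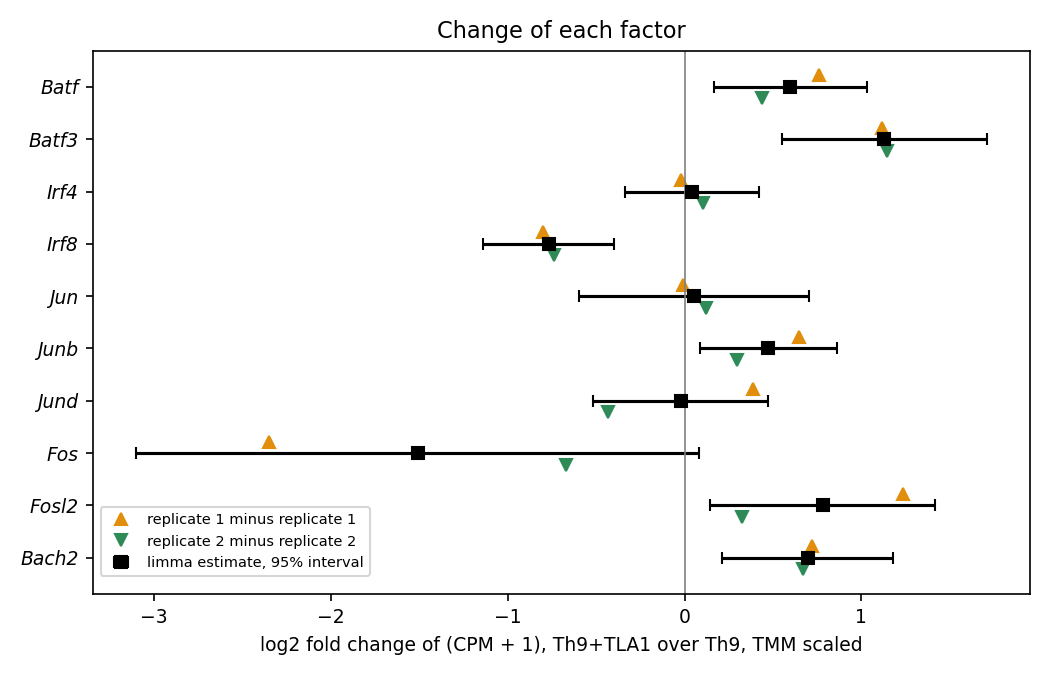
Log2 fold change of CPM + 1, Th9+TLA1 over Th9 after TMM scaling (horizontal axis), for each of the 10 factors, with squares and bars for the limma estimate and its 95% interval and triangles for the difference within each replicate number. The intervals of Batf, Batf3, Junb, Fosl2 and Bach2 lie above 0 and that of Irf8 lies below it before adjustment for multiple testing, and the 2 triangles of Fosl2, Jund and Fos lie far apart.

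Among the JUN genes, which encode the dimer partners of BATF, Junb (Entrez 16477, chromosome 8, 84976909 to 84978748) had 434 and 419 CPM in the Th9+TLA1 libraries and 305 and 351 CPM in the Th9 libraries. The groups did not overlap. Its log2 fold change was 0.47 ± 0.18 (SE, limma adjusted p = 0.217). JUNB is the JUN protein best known as the partner of BATF in helper T cells that make interleukin 17. Jun (Entrez 16476, chromosome 4, 95049036 to 95052222), the founding member of the family, had 35.9 and 35.1 CPM in the Th9+TLA1 libraries and 39.8 and 33.2 CPM in the Th9 libraries, and the groups overlapped (log2 fold change 0.06 ± 0.30, adjusted p = 0.956, limma). Its sign turned without Th9 replicate 2, and with the same shift of all genes under total count scaling. Jund (Entrez 16478, chromosome 8, 70697739 to 70700616) had 165 and 116 CPM in the Th9+TLA1 libraries and 139 and 162 CPM in the Th9 libraries. The TL1A libraries enclosed the Th9 libraries, and the fold change had no stable sign: -0.02 over all libraries, 0.39 within replicate 1 and -0.43 within replicate 2 on the log2 scale (limma adjusted p = 0.977). Exons of Jund overlap those of the antisense gene Gm11175 by 877 bases, and the library kit does not mark strand, so reads from the 2 strands cannot be told apart there.

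Fos (Entrez 14281, chromosome 12, 85473890 to 85477274), an immediate early gene whose product takes up JUN partners, was the least abundant of the 10. It had 1.34 and 1.95 CPM in the Th9+TLA1 libraries, from 4 and 6 reads, and 11.9 and 3.79 CPM in the Th9 libraries, from 48 and 12 reads. Both TL1A libraries lay below both Th9 libraries, but the Th9 libraries differed from each other by more than either TL1A library differed from the lower of them. The log2 fold change of -1.51 ± 0.73 (SE) did not pass (limma adjusted p = 0.326), and it ran from -2.17 without Th9 replicate 2 to -0.83 without Th9 replicate 1. Fosl2 (Entrez 14284, chromosome 5, 32136472 to 32157840), which encodes FRA2, a FOS family protein that pairs with JUN, had 99.7 and 102 CPM in the Th9+TLA1 libraries and 46.0 and 83.7 CPM in the Th9 libraries. The groups did not overlap, with the gap set by the wide spread of the Th9 libraries. Its log2 fold change was 0.78 ± 0.29 (SE, limma adjusted p = 0.217), 0.31 without Th9 replicate 1 and 1.26 without Th9 replicate 2.

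Bach2 (Entrez 12014, chromosome 4, 32238413 to 32586109), which encodes the repressor that shares sites with AP-1 dimers, had 98.7 and 95.7 CPM in the Th9+TLA1 libraries and 65.6 and 61.6 CPM in the Th9 libraries. Replicates were close in both groups, and the groups did not overlap. The log2 fold change was 0.70 ± 0.22 (SE), or 1.62-fold with a 95% interval of 1.16- to 2.26-fold, and it did not pass (limma adjusted p = 0.152). Exons of Bach2 overlap those of the antisense gene Bach2os by 537 bases, where reads from the strands cannot be told apart. Bach2os itself was counted at 33 and 31 reads in the Th9+TLA1 libraries and 29 and 33 reads in the Th9 libraries. Bach2 was counted at 294 and 295 reads with TL1A and at 265 and 195 reads without. The part of antisense reads in the Bach2 values was not tested. The repressor transcript and Batf were thus both higher with TL1A by a like amount, and their ratio is given below.

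Ratios were taken within each library between Batf or Batf3 and each of the 8 other factors, giving 16 ratios. Ratios are printed as CPM per kilobase of exon, and differences between groups as log2 of CPM + 1, which do not depend on gene length. Of the 16, 13 did not overlap between groups, all of them higher with TL1A, 6 of 8 for Batf and 7 of 8 for Batf3. None was wholly lower. Without the ratios to Fos, 11 of 14 were wholly higher. The ratio of Batf was wholly higher against 66.1% of all other tested genes and wholly lower against 4.60%, and that of Batf3 against 85.3% and 1.27%, so these counts lie near what the higher Batf and Batf3 values give against any gene. For each of the 13 the exact two-sided permutation p was 0.333, the smallest possible with these libraries, and 0.410 after Benjamini-Hochberg adjustment over the 16.

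Besides Fos, whose reads were few, Irf8 was the partner that lay wholly lower with TL1A while Batf and Batf3 lay wholly higher. Batf to Irf8 was 2.65 and 2.53 in the Th9+TLA1 libraries and 0.894 and 1.12 in the Th9 libraries. In Th9 cells the 2 transcripts were thus about equal per kilobase, and with TL1A Batf was the higher. The log2 difference was 1.37 ± 0.16 (SE), a 2.58-fold higher ratio, where the median over all other tested genes was 0.61 and 91.0% of them had a smaller difference. Because Batf is common to all these ratios, that share only ranks the change of Irf8 itself among all genes. Batf3 to Irf8 was 1.61 and 1.30 in the Th9+TLA1 libraries and 0.421 and 0.347 in the Th9 libraries, a 3.73-fold higher ratio (log2 difference 1.90 ± 0.20). Per kilobase, Batf3 was below Irf8 in both Th9 libraries and above it in both Th9+TLA1 libraries. In CPM, with no division by gene length, both Batf and Batf3 were below Irf8 in every library.

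Against Irf4 the BATF transcripts remained the lower ones in every library. Batf to Irf4 was 0.731 and 0.635 in the Th9+TLA1 libraries and 0.424 and 0.502 in the Th9 libraries (log2 difference 0.56 ± 0.16), and Batf3 to Irf4 was 0.445 and 0.327 with TL1A and 0.200 and 0.156 without (1.09 ± 0.28). With the 2 genes of each family summed, there were 1.09 and 1.30 IRF transcripts per BATF transcript per kilobase in the Th9+TLA1 libraries and 2.36 and 2.20 in the Th9 libraries.

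Among JUN partners, the Batf to Junb ratio had the smallest difference between groups. It was 0.750 and 0.752 in the Th9+TLA1 libraries and 0.693 and 0.681 in the Th9 libraries, a log2 difference of 0.13 ± 0.014 (SE). The groups did not overlap, but the difference was only 1.09-fold, and both genes were higher with TL1A. Of all other tested genes, 16.1% had a lower log2 difference in their ratio from Batf, and the median was 0.61. Here too the share only ranks the change of Junb itself among all genes. Batf to Jun was 15.98 and 15.8 in the Th9+TLA1 libraries and 9.35 and 12.7 in the Th9 libraries, and Batf to Jund was 1.82 and 2.50 with TL1A and 1.40 and 1.36 without. Batf3 to Jund crossed 1 per kilobase, at 1.10 and 1.29 in the Th9+TLA1 libraries and 0.660 and 0.423 in the Th9 libraries. In CPM, Batf3 was below Jund in every library.

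Of the 4 ratios to the competitors Fosl2 and Bach2, 3 overlapped between groups. Batf to Bach2 was 16.20 and 16.15 in the Th9+TLA1 libraries and 15.8 and 19.0 in the Th9 libraries, and Batf to Fosl2 was 11.8 and 11.2 with TL1A and 16.6 and 10.3 without. In both cases the groups overlapped, and the log2 differences were -0.10 ± 0.13 and -0.18 ± 0.34 (SE). Batf3 to Bach2 was higher with TL1A, at 9.85 and 8.31 against 7.45 and 5.92 in the Th9 libraries, whereas Batf3 to Fosl2 overlapped. The ratios to Fos rest on 4 and 6 Fos reads with TL1A and are correspondingly uncertain, with a log2 difference of 2.09 ± 0.82 for Batf and 2.62 ± 0.59 for Batf3. Without Th9 replicate 1 the difference for Batf was 1.29, and without Th9 replicate 2 it was 2.89.

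**Figure D3:**
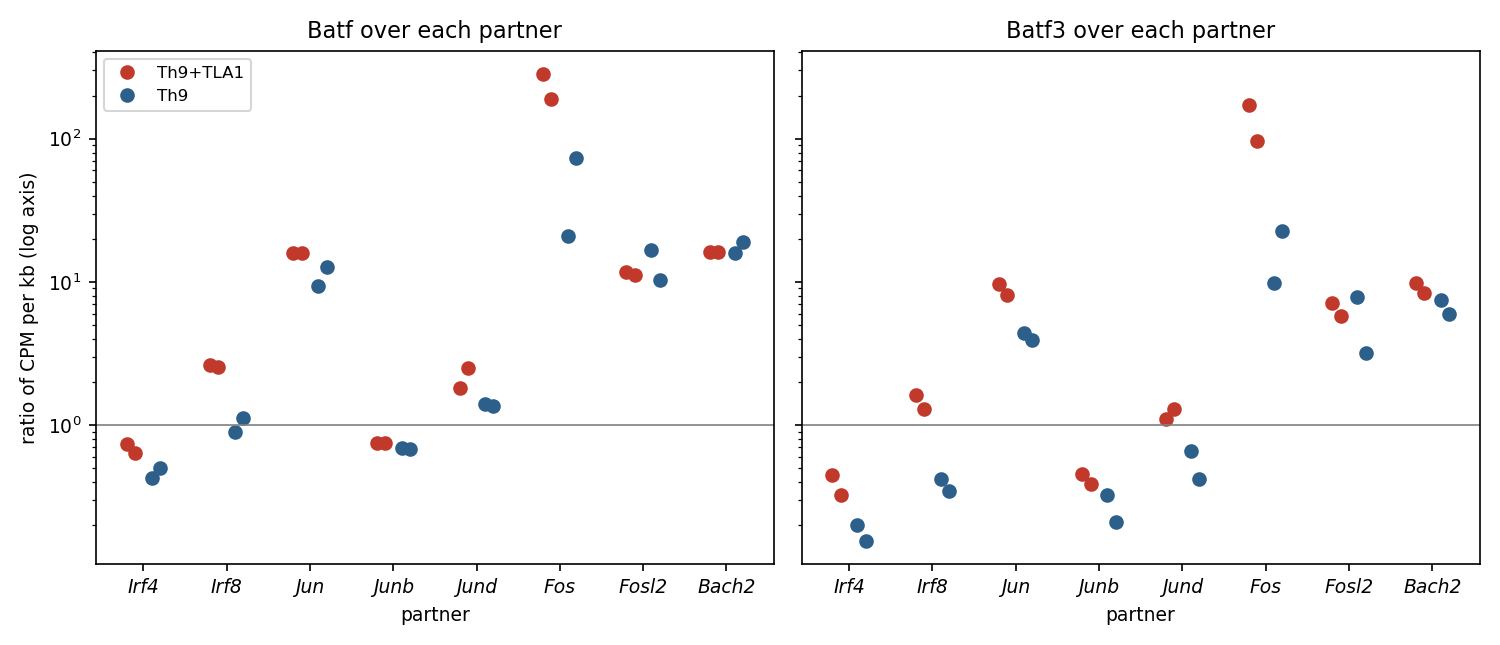
Ratio of Batf (left) and of Batf3 (right) to each partner in each library, in CPM per kilobase of exon on a log axis, with Th9+TLA1 libraries in red to the left of the Th9 libraries in blue and a line at a ratio of 1. The widest gap outside Fos is that to Irf8, and the points overlap for Batf over Fosl2, Batf over Bach2 and Batf3 over Fosl2.

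The 7 AP-1 genes of the set, BATF, JUN and FOS together, summed to 655 and 592 CPM per kilobase in the Th9+TLA1 libraries and 449 and 489 in the Th9 libraries. Batf and Batf3 together held 44.1% and 44.5% of this pool with TL1A and 38.3% and 35.4% without, with means of 44.3% ± 0.256 and 36.8% ± 2.04 (SD, n = 2 libraries each). The difference of 7.49 percentage points had an exact two-sided permutation p of 0.333, the smallest possible. Most of it lay with Batf3, at 16.7% and 15.1% in the Th9+TLA1 libraries and 12.3% and 8.39% in the Th9 libraries. Batf held 27.5% and 29.4% of the pool with TL1A and 26.0% and 27.0% without. The 3 JUN genes together held 53.4% and 52.7% in the Th9+TLA1 libraries and 58.9% and 61.6% in the Th9 libraries. Within them, Jund held 15.1% and 11.8% with TL1A and 18.6% and 19.8% without, while the shares of Junb overlapped. With no division by gene length, the difference in the BATF share was 4.89 percentage points.

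**Figure D4:**
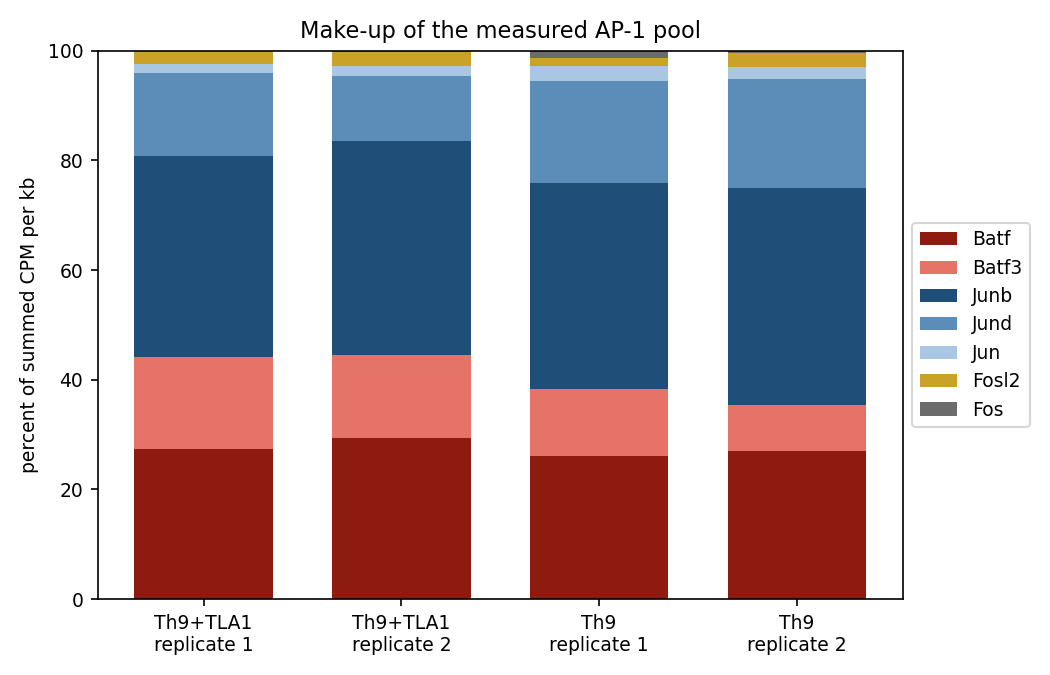
Share of each of the 7 AP-1 genes in their summed CPM per kilobase (vertical axis, percent) in each library, with the Th9+TLA1 libraries on the left. Batf and Batf3, at the bottom, take 44.1% and 44.5% in the Th9+TLA1 libraries and 38.3% and 35.4% in the Th9 libraries, and Junb is the largest single share in each library.

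In order of level per kilobase, the 10 factors ran with TL1A as Irf4 (260 ± 19.9), Junb (236 ± 5.98), Batf (177 ± 4.20), Batf3 (99.5 ± 14.0), Jund (84.3 ± 20.7), Irf8 (68.3 ± 0.484), Fosl2 (15.4 ± 0.241), Jun (11.1 ± 0.191), Bach2 (10.9 ± 0.233) and Fos (0.780 ± 0.203 CPM per kilobase, mean ± SD, n = 2). Neighbours whose libraries overlapped were Batf3 with Jund and Jun with Bach2. In Th9 cells the order was Irf4 (269 ± 8.96), Junb (181 ± 17.8), Irf8 (124 ± 8.93), Batf (124 ± 10.7), Jund (90.1 ± 9.58), Batf3 (48.0 ± 9.89), Jun (11.4 ± 1.48), Fosl2 (9.92 ± 4.07), Bach2 (7.15 ± 0.318) and Fos (3.72 ± 2.71). There Irf8 with Batf, Jun with Fosl2 and Fosl2 with Bach2 overlapped. Irf8 ranked 6 with TL1A and 3 without, and Batf3 ranked 4 with TL1A and 6 without. Batf3 and Irf8 exchanged order per kilobase between the groups, as the per-library ratios above also show, but not in CPM.

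The genes whose profile over the 4 libraries lay closest to that of Batf, among 7043 genes with a mean of at least 20 CPM and by Euclidean distance of centred log2 values, were Dad1, Eif3i, Zfand2b and Ntmt1. Dad1 had 321 and 302 CPM in the Th9+TLA1 libraries and 203 and 231 CPM in the Th9 libraries. Closest to Batf3 were Card19, Iscu, Slc35a5 and Igf1r, and Igf1r, which encodes a growth factor receptor, had 66.8 and 58.7 CPM in the Th9+TLA1 libraries and 38.1 and 29.0 CPM in the Th9 libraries. With 4 libraries many genes share such a profile.

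Lists of related genes, drawn up with earlier results of these data known, were read from the same limma fit. Of 7 other AP-1, JDP and ATF factors, 4 were tested, 0 were called and 2 stood at an unadjusted p under 0.05, against 1.14% and 16.7% of all tested genes. Atf3, a stress-induced bZIP factor, had 228 and 257 CPM in the Th9+TLA1 libraries and 175 and 153 CPM in the Th9 libraries (adjusted p = 0.121), and Atf2 had 65.1 and 64.3 CPM with TL1A and 65.8 and 64.7 CPM without. Batf2, the third BATF gene, had no read in any library, and Fosb had 4 reads in each group. Jdp2, which encodes a repressor that dimerises with JUN and was singled out after its values were seen, had 3.36 and 3.25 CPM in the Th9+TLA1 libraries and 11.9 and 12.6 CPM in the Th9 libraries (limma adjusted p = 0.206).

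Among the BACH relatives of the CNC and MAF families, 0 of 6 tested genes were called, and 0 at an unadjusted p under 0.05, where 16.7% of all tested genes stood. Nfe2l2, which encodes the oxidative stress factor NRF2, had 65.1 and 77.6 CPM in the Th9+TLA1 libraries and 90.6 and 96.0 CPM in the Th9 libraries, and its relative Nfe2l1 had 142 and 121 CPM with TL1A and 133 and 108 CPM without. Bach1, the close relative of Bach2, lay below the filter, at 4.03 and 1.95 CPM with TL1A and 2.72 and 0.947 CPM without. Of 13 tested CREB, ATF and C/EBP factors, 0 were called and 3 (23.1%) stood at an unadjusted p under 0.05, near the 16.7% of all tested genes. Xbp1, the transcription factor of the unfolded protein response, had 502 and 479 CPM in the Th9+TLA1 libraries and 608 and 635 CPM in the Th9 libraries (limma adjusted p = 0.493), and Nfil3 had 475 and 381 CPM with TL1A and 402 and 492 CPM without.

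Of the 9 tested members among the other IRF factors and IRF2-binding proteins, 0 were called and 2 (22.2%, against 16.7% of all tested genes) stood at an unadjusted p under 0.05, and their median log2 fold change was 0.04. Irf2bp2, a corepressor gene, had 193 and 198 CPM in the Th9+TLA1 libraries and 236 and 224 CPM in the Th9 libraries. Irf5, singled out after its values were seen, had 49.3 and 51.9 CPM in the Th9+TLA1 libraries and 30.9 and 24.9 CPM in the Th9 libraries (limma adjusted p = 0.151). Of the ETS and Ikaros factors that bind with IRF4 or IRF8, 0 of 4 tested were called, and 1 stood at an unadjusted p under 0.05 (16.7% of all tested genes). Etv6 had 261 and 251.5 CPM in the Th9+TLA1 libraries and 92.3 and 198 CPM in the Th9 libraries (limma adjusted p = 0.139), and Ets1 had 1613 and 1600 CPM with TL1A and 1382 and 1600 CPM without. Spi1, which encodes the ETS partner PU.1, had no read in any library, and Spib had 1 read in all. For the 21 MAP kinases upstream of AP-1 and their phosphatases, all tested, 0 were called and 2 (9.52%, against 16.7% of all tested genes) stood at an unadjusted p under 0.05, with a median of 0.12. Map2k1, which encodes the kinase MEK1, had 278 and 286 CPM in the Th9+TLA1 libraries and 263 and 292 CPM in the Th9 libraries.

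T cell genes known to need BATF or IRF4 were the 1 list with called members. Of 16 tested, 5 rose (Il9, Il17f, Il21, Ahr and Il1r1) and 0 fell, against 0.891% of tested genes called higher and 0.252% called lower, and the median log2 fold change was 1.26. Of the 16, however, 3 (Il1r1, Il22 and Il10) passed the filter on low counts only through the Th9+TLA1 libraries, where they were high. Of the other 13, 4 were called, and their median was 0.98. Il22 had 20.5 and 4.54 CPM with TL1A and no read in either Th9 library. Its TL1A mean was at least 14.8-fold above the mean Th9 floor of 3 reads per library, and most of that mean came from 1 library. Il22 already lay above the median of the 16, so placing it at this bound could not move that median of 1.26. Il9 had 2879 and 2683 CPM in the Th9+TLA1 libraries and 1560 and 1445 CPM in the Th9 libraries (log2 fold change 0.98 ± 0.18 SE, limma adjusted p = 0.0261). Il9 encodes the cytokine that names these cells. Ahr, the aryl hydrocarbon receptor gene, had 272 and 231 CPM with TL1A and 60.9 and 95.03 CPM without (log2 fold change 1.80 ± 0.25, adjusted p = 0.00558, limma). Il21, a cytokine gene, had 97.3 and 70.1 CPM with TL1A and 10.9 and 5.68 CPM without (3.32 ± 0.38, adjusted p = 0.00171, limma). For all 3 the groups lay far apart. Il17f, which encodes a cytokine of Th17 cells, had 75.5 and 39.6 CPM with TL1A and 3.46 and 8.84 CPM without (3.15 ± 0.50, adjusted p = 0.0118, limma). Il1r1, an interleukin 1 receptor gene, had 20.1 and 28.9 CPM with TL1A and 0 and 2.84 CPM without (3.73 ± 0.70, adjusted p = 0.0295, limma). With Th9 replicate 2 left out, none of the 5 passed in the limma fit. Ahr then had an adjusted p of 0.05002, and the other genes had 0.0734 to 0.0912. Il9 also lost it without either Th9+TLA1 library (0.215 without replicate 1 and 0.191 without replicate 2), and Il1r1 without Th9+TLA1 replicate 2 (0.121) or Th9 replicate 1 (0.0804). Among the uncalled genes, 2 were singled out after their values were seen. Gata3, the master factor of Th2 cells, had 246 and 273 CPM in the Th9+TLA1 libraries and 278 and 337 CPM in the Th9 libraries, and Icos, a costimulatory receptor gene, had 238 and 257 CPM with TL1A and 389 and 310 CPM without, neither past the test (limma adjusted p = 0.752 and 0.290).

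Of the 12 windows searched, 11 of the factors and 1 of Il9, that of Il9 was the only one to hold the AP-1 letters. The 250 bases before the Il9 start (chr13:56482258-56482507, minus strand, written 5′ to 3′ along the gene) are shown for that reason, with the match TGACTCA in capitals.
Il9: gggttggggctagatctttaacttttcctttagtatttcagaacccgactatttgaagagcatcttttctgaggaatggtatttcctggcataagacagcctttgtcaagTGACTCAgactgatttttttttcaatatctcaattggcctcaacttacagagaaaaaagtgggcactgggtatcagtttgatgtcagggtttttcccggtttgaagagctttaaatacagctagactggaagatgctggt
The match lies at -140 to -134, counted from the base before the start as -1. Of all promoter windows 7.81% hold the AP-1 letters, and 1 of 12 lies near that share. Neither composite motif, the IRF repeat nor the kappaB letters were found in this window.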

How the data were processed

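RNA of 4 mouse T cell libraries was analysed. Per the labels' protocols, cDNA was made from total RNA with a SMARTer Ultra Low Input kit, which does not mark strand, and sequenced on an Ion Torrent instrument; per the submitters' processing notes, HTSeq 0.5.4, edgeR and build mm10 were used. Aligner, annotation and the handling of shared reads: not given in the sources used. What the authors deposited is CPM, scaled per library over 23480 identifiers, of which 23383 matched a symbol in RefSeq's GRCm38.p6 table, the assembly of mm10. Of non-zero values, 100% were whole multiples of 1 read within 0.01 of a read, and the recovered reads give the depth.

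Genes were kept with filterByExpr on these reads (minimum count 10). CPM were divided by TMM factors (0.964 to 1.06), and log2(CPM + 1) was fitted with limma on the group alone, with Benjamini-Hochberg adjustment over 10324 genes; such fold changes understate those of low genes. Printed CPM are as deposited. EdgeR's quasi-likelihood test on the recovered reads, an alternative, called 110 genes, and DESeq2 was another. Levels per kilobase divide CPM by the union of exons in GENCODE M21 basic. Ratios were compared by exact permutation over libraries. Motifs were searched in RefSeq promoter windows. The limma and edgeR fits were tested on simulated data.

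The 10 factors, the lists and the rule for named genes (the 10 factors; called list members, or else the 2 most abundant tested; the 4 nearest profiles) were chosen with earlier results of these data known; some genes that the rule names are not reported here. Other settings were pseudocounts of 0.5 and 2 CPM, total count and RLE scaling, no filter or a minimum count of 30, each library left out, and the replicate number as a block. The numbers are not shown to pair the libraries: deviations of same-numbered libraries correlated at -0.01. Fits used limma 3.58.1, DESeq2 1.42.0 and edgeR 4.0.16 under R 4.3.3, and tables and plots were made in Python 3.11.15 (numpy 2.4.6, pandas 2.3.3, matplotlib 3.10.9).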

Additional observations from a re-analysis of the deposited data

How the results depend on the processing

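With 2 libraries per group and at most 4041633 reads, a 2-fold difference of a moderately expressed factor can miss the threshold. The number of genes called (118, of which 92 higher and 26 lower) was 73 (52 higher) with total count scaling, 33 (25 and 8) with no filter on low counts, 275 (185 and 90) with DESeq2 and 225 (147 and 78) with the replicate number as a block. With each library left out in turn it ranged between 19 and 155 (19 to 87 higher, 0 to 68 lower): it was 42 without Th9 replicate 1, 19 without Th9 replicate 2, and the lower genes numbered 68 without Th9+TLA1 replicate 1 and 46 without Th9+TLA1 replicate 2, where the higher ones numbered 50. Of the 10 factors, 0 were called in the main setting and with any library left out, 1 with total count scaling and 1 with a minimum count of 30 (Irf8 in both), 2 with DESeq2 (Irf8 and Batf3), and 1 with the replicate block (Batf3, adjusted p = 0.0363).

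The sign turned for Irf4 (-0.050) and Jun (-0.034) with total count scaling, which moved the median of all tested genes to -0.10, and with libraries left out the log2 fold change ranged from -0.029 to 0.11 for Irf4, -0.019 to 0.14 for Jun and -0.28 to 0.24 for Jund. Batf, Batf3, Irf8, Junb, Fosl2 and Bach2 kept their sign in every setting run, and so did Fos except with a minimum count of 30, where it was not tested. Of the 16 log2 ratios, 3 turned. With a library left out, Batf to Fosl2 ranged from -0.52 to 0.16, Batf to Bach2 from -0.23 to 0.033 and Batf3 to Fosl2 from -0.28 to 0.98. Within a replicate block, Batf to Fosl2 was 0.12 in number 2, Batf to Bach2 was 0.036 in number 1 and Batf3 to Fosl2 was -0.12 in number 1. The difference in the BATF share of the AP-1 pool was 4.89 percentage points with no length division and 6.05 to 8.93 with a library left out. The cause of these shifts was not tested.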
